A study of Mus musculus with 12 samples.

Results

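The genes described are Il6, Il23a, Il27, Il1a and Il17f, which encode inflammatory interleukins and are 5 of the 11022 genes in the deposited expression table. They were chosen by their gene symbols with their expression in these cells already known, so their rise after stimulation and their fall with each inhibitor are given as a description without a p-value. The cells were cytotoxic T lymphocytes (CTL) grown from adult female LCMV-P14 TCR transgenic mice, whose CD8 T cells share a receptor for the gp33 peptide of a virus glycoprotein. All groups were activated with peptide, IL-2 and IL-12, expanded in IL-2, rested, and held in medium with IL-2 at 20 ng/mL, and the methods give DMSO as the vehicle control. There were 4 groups of 3 cultures: Unstimulated CTL, CTL given 100 ng/mL peptide for 4 h (TCR), CTL given peptide with 10 µM of the PI3K p110δ inhibitor IC87114 (TCR+PI3Kdi), and CTL given peptide with 2 µM of the MEK inhibitor PD184252 (TCR+MEKi). The comparisons ask which part of the TCR response changes with each inhibitor. The methods give no sort of these cells, and in bulk samples fewer producing cells and less mRNA per cell cannot be told apart.

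The 5 genes encode secreted signals best known from macrophages, dendritic cells and helper T cells. IL-6 signals through a ligand-binding chain and the shared chain gp130 (Il6st) to STAT3. Il23a encodes the p19 chain of IL-23, which is secreted only when it is joined to the p40 chain (Il12b), and IL-23 sustains T cells that make IL-17. Il27 encodes the p28 chain of IL-27, which pairs with Ebi3 and signals through Il27ra and gp130. Il1a encodes IL-1α, an alarm cytokine held inside cells and released on damage, and Il17f encodes a cytokine of the IL-17 family, which acts on epithelial and stromal cells. PI3K p110δ makes the lipid signal that recruits kinases such as AKT to the membrane, while MEK activates the kinases ERK1 and ERK2, which act on AP-1 factors such as Fos.

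The genes lie on 5 different chromosomes of the mouse genome (GRCm38). Il6 spans chromosome 5 from 30013114 to 30019975 on the plus strand with 5 exons. Il23a spans chromosome 10 from 128296139 to 128298084 with 4 exons, and Il27 spans chromosome 7 from 126589010 to 126594941 with 5 exons, both on the minus strand. Il1a spans chromosome 2 from 129299610 to 129309972 with 7 exons and Il17f chromosome 1 from 20777146 to 20784270 with 3 exons, again on the minus strand. Exons of Il27 share 103 bases with Apobr and exons of Il1a share 222 bases with the noncoding gene Gm14023, each on the opposite strand. Whether reads were counted by strand is not stated, so reads in these shared stretches cannot be told apart.

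Because these genes were switched on together by the TCR, the 250 bases before the transcription start are printed for the 3 genes with an entry in the RefSeq promoter table (GRCm38.p6), with motif matches in capitals. The motifs were AP-1 (TGANTCA), the CRE core (TGACGT), the NFAT core (GGAAA) and the NF-kappaB consensus, searched on both strands.
Il6, chr5:30012864-30013113, plus strand: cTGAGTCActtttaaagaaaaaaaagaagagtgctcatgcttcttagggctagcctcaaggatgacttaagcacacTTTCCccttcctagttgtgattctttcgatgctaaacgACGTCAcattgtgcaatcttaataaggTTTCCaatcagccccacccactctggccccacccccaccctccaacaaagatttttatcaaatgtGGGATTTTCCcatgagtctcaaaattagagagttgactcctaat
Il1a, chr2:129309973-129310222, minus strand: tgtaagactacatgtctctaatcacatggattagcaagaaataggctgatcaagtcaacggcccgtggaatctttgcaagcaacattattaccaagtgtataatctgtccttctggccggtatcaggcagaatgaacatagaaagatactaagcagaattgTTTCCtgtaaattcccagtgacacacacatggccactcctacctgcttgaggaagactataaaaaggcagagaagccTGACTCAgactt
Il17f, chr1:20784271-20784520, minus strand: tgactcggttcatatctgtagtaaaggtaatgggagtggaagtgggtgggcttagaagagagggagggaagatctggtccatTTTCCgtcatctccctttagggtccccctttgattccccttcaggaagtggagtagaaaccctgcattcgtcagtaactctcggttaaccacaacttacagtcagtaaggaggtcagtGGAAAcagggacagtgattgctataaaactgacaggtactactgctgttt

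The Il6 sequence held a match to all 4 motifs. The AP-1 match began 249 bases before the start, the CRE core match began at 136 bases, and the NF-kappaB match ran from 44 to 35 bases and overlapped the nearest of 3 NFAT core matches. The Il1a sequence held an AP-1 match from 12 to 6 bases before the start and 1 NFAT core match at 89 bases. The Il17f sequence held 2 NFAT core matches, beginning at 168 and 50 bases, and no match to the other motifs. Among 32851 RefSeq promoters, windows of the same length held the AP-1 motif in 6.75%, the CRE core in 6.47%, the NF-kappaB consensus in 3.90% and the NFAT core in 55.6%. These matches describe letters and not binding.

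Expression is given as FPKM, the number of fragments scaled by exon length and library size. The table keeps no read totals, but the steps between low values gave an effective depth of 7840000 to 13250000 reads per sample. At that depth low values fell within 0.15 of a whole read in 60.9% to 70.3% of cases per sample. Values spread evenly would give 30.0% at a depth fixed beforehand. Each depth was chosen to put these same values nearest to whole reads, so that share is not independent evidence. A floor of 3 reads was used, and floors and counting intervals cover counting error only. Of 12 markers of cytotoxic T cells 11 were analysed, with a summed level between 17869 and 26772 FPKM in every culture. Most of that sum was Gzmb and Gzma, at means of 13005 and 7397 FPKM after TCR. Prf1 (1.17, limma adjusted p = 3.22e-10) and Tbx21 (1.95, limma adjusted p = 6.51e-10) were called higher with TCR. Tbx21 was called lower with MEKi (-1.12, limma adjusted p = 2.49e-06), and the other markers of this list were not called in any comparison. Of 18 macrophage, monocyte or neutrophil markers 3 were analysed (Cd68, Fcgr3 and Fcer1g). Their sum was 45.9 to 50.7 FPKM in Unstimulated, 52.8 to 58.1 after TCR, 47.4 to 53.2 with PI3Kdi and 43.9 to 50.3 with MEKi. With TCR Fcgr3 was called lower (-1.16, limma adjusted p = 0.0254), and Cd68 and Fcer1g were not called. Of 14 dendritic cell markers 5 were analysed (Itgax, Zbtb46, Batf3, H2-Ab1 and Cd74), and their sum was 29.1 to 35.7, 73.9 to 91.2, 52.2 to 81.7 and 115 to 135 FPKM in the same order. Most of the stimulated sum was Batf3, at means of 20.7, 62.5, 50.5 and 106 FPKM. Cd74, the invariant chain of MHC class II, had means of 1.35, 7.22, 2.25 and 4.13 FPKM, the order of groups that Il6 and Il23a also had, and was called higher with TCR (2.46, limma adjusted p = 3.59e-06) and lower with PI3Kdi (-1.68, limma adjusted p = 0.000974). Zbtb46 had means of 0.027, 3.49, 1.97 and 3.11 FPKM in that order too and was called with TCR only, while Itgax and H2-Ab1 were not called in these comparisons or with MEKi. Of 4 CD4 T cell markers 3 were analysed (Cd4, Zbtb7b and Cd40lg). Their sums were 8.41 to 10.8, 118 to 121, 52.8 to 57.1 and 46.5 to 52.5 FPKM in the same order. Cd40lg made up most after stimulation and was called in all 3 comparisons. Cd4 had means of 0.77, 2.69, 2.94 and 0.45 FPKM. It was called higher with TCR (1.74, limma adjusted p = 9.53e-05) and lower with MEKi (-2.40, limma adjusted p = 2.31e-05), but not called with PI3Kdi. Zbtb7b, at means of 7.37, 5.29, 3.92 and 9.95 FPKM, was called in none of these 3 comparisons. Of 4 NK cell markers 2 were analysed (Klrb1c and Klrc1), with sums of 8.14 to 10.9, 15.8 to 20.5, 23.7 to 36.7 and 8.66 to 12.6 FPKM. With TCR these markers went opposite ways. Klrb1c was called lower (-1.53, limma adjusted p = 4.79e-07) and Klrc1 higher (1.93, limma adjusted p = 8.18e-06). None of 9 B cell markers and none of 7 markers of Th17 or gamma delta T cells was analysed here, nor were the other markers of these lists, Lyz2, Csf1r and Itgam among them. Between the inhibitors Zbtb7b (1.33, limma adjusted p = 1.94e-06) and Batf3 (1.09, limma adjusted p = 4.32e-05) were called higher with MEKi. Cd4 (-2.48, limma adjusted p = 1.94e-05), Klrc1 (-1.69, limma adjusted p = 0.000168) and Fcgr3 (-1.19, limma adjusted p = 0.049) were called lower there. The remaining analysed markers were not called between the inhibitors, where 1.39% of all genes were called higher and 1.71% lower. The part of other cells in the values of the 5 genes was not tested.

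Il23a was the most abundant of the 5 genes and was the only one detected above 3 reads before stimulation. Its level was 0.85, 0.78 and 0.94 FPKM in the 3 Unstimulated cultures, 80.5, 76.5 and 79.6 after TCR, 14.71, 15.97 and 18.27 with PI3Kdi, and 47.1, 48.3 and 55.5 with MEKi. The 4 groups did not overlap and ranked Unstimulated, PI3Kdi, MEKi and TCR from low to high. The rise with TCR was 6.37 ± 0.09 on the log2 scale (SE, fit over all genes), or 82.7-fold with a pseudocount of 0.1 FPKM. The ratio of mean FPKM, with no pseudocount, was 92.1. The log2 rise was 5.43 and 6.51 with a pseudocount of 1 and 0.01, and 5.98 with each sample rescaled to a common FPKM sum. At a mean of 78.9 FPKM after TCR, Il23a stood above 90.2% of all genes. The label of low abundance therefore does not hold for Il23a in stimulated CTL.

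The other 4 genes were barely detected before stimulation. Il6 was listed at 0 in all 3 Unstimulated cultures and reached 6.32, 5.65 and 9.85 FPKM after TCR, which is about 67, 61 and 105 reads. Against the highest floor of 3 reads in an Unstimulated library, 0.264 FPKM, this was at least 27.6-fold higher. It stood at 0.74, 0.74 and 1.56 FPKM with PI3Kdi and at 2.45, 2.12 and 4.93 FPKM with MEKi, and again the 4 groups did not overlap. The third culture was the highest of its group after TCR and with each inhibitor.

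Il1a, listed at 0 in every Unstimulated culture, was 7.37, 7.35 and 5.48 FPKM after TCR, at least 46.3-fold above the floor of 0.145 FPKM. It fell to 1.52, 0.46 and 0.77 FPKM with PI3Kdi and to 0.13, 0.48 and 0.17 FPKM with MEKi. Every inhibitor-treated culture lay below every TCR culture, while the PI3Kdi and MEKi ranges met at a single pair of cultures, 0.46 and 0.48 FPKM. The MEKi values rest on 2, 9 and 3 reads.

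Il27 was likewise listed at 0 before stimulation and was 5.38, 4.57 and 6.80 FPKM after TCR, at least 13.7-fold above the floor of 0.407 FPKM. With PI3Kdi it was 0.43, 0.57 and 0.24 FPKM, or 3, 4 and 2 reads. With MEKi it was 0, 0.59 and 0 FPKM, so that a single culture carried all 4 reads of the group, and the ranges under the inhibitors overlapped. Il27 values fell on whole reads at a length of 706 bases, close to the coding length of 702 bases and not to the annotated exon length of 1021 bases, so its level per length depends on the length that was used.

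Il17f gave 1 read in each Unstimulated library (0.08, 0.08 and 0.06 FPKM) and 3.65, 4.19 and 2.34 FPKM after TCR. The ratio of read rates was 46.6 (exact 95% counting interval 15.6 to 229). It was 0.34, 0 and 0.43 FPKM with PI3Kdi and 0.32, 0.35 and 0.19 FPKM with MEKi. These 2 groups overlapped and lay below every TCR culture, on totals of 10 and 9 reads against 118 reads after TCR. The MEKi cultures lay above all Unstimulated cultures, whereas the PI3Kdi group held a culture at 0. All 5 genes were past the call thresholds with TCR (adjusted p under 0.05 and more than a 2-fold change), where 8.87% of the 11022 genes were called higher, and nothing is read from that count because the genes were chosen with these values known.

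**Figure D1:**
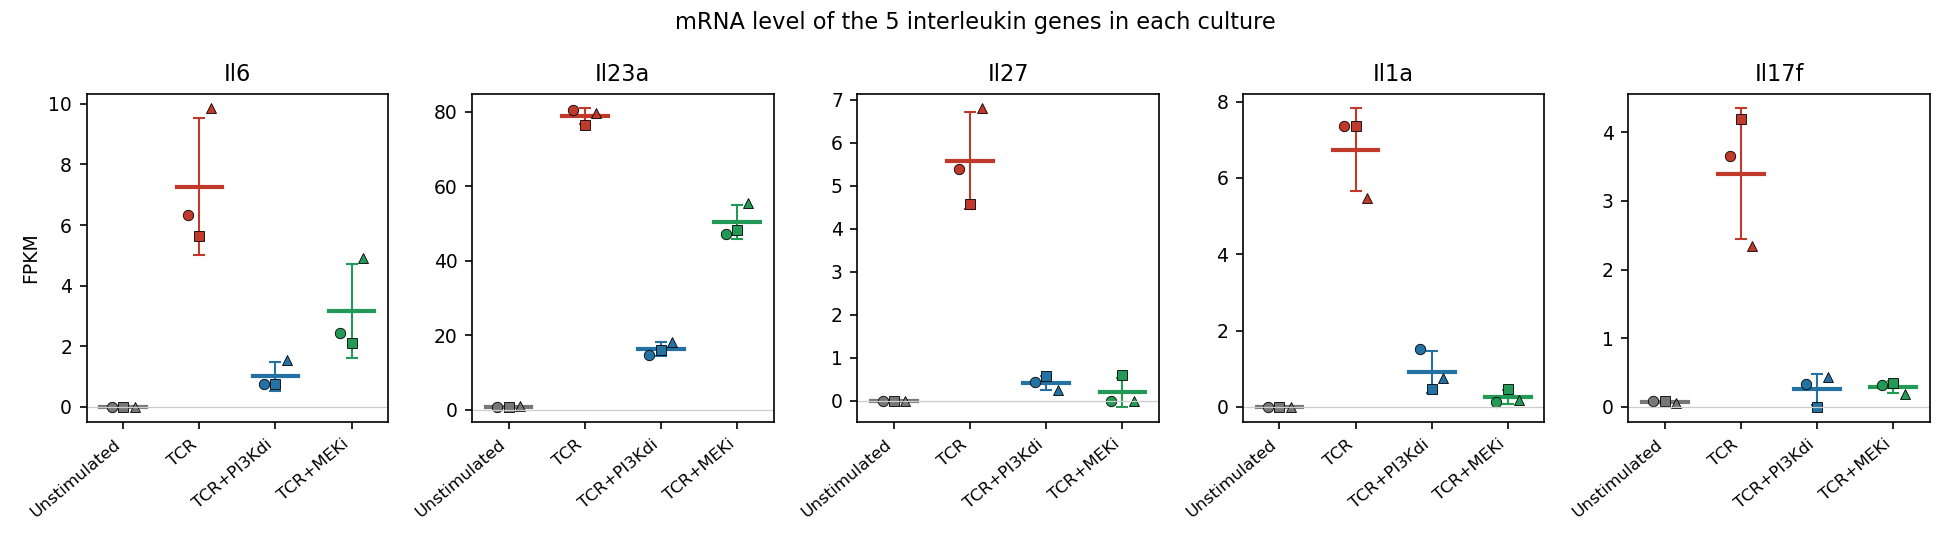
FPKM (linear axis, a separate scale for each gene) in the 12 cultures, with circles, squares and triangles for replicates 1, 2 and 3, bars for the mean and whiskers for the SD (n = 3). Each gene is highest in the TCR group, and Il23a reaches 76.5 to 80.5 FPKM where the others stay at or below 9.85.

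Among 16 interleukin genes ordered by mean FPKM after TCR, Il23a was the fifth, at 78.9 ± 2.09 FPKM (SD, n = 3), behind Il10, Il3, Il2 and Il24, and Il31 followed at 57.1 ± 10.2 FPKM. Il6 at 7.27 ± 2.26, Il1a at 6.73 ± 1.09 and Il27 at 5.58 ± 1.13 FPKM were the tenth, eleventh and thirteenth. Neighbours among these did not differ beyond the SD of their cultures, and the same held for Il17f at 3.39 ± 0.95 FPKM and Il19 at 2.85 ± 0.23 FPKM. Il6, Il1a, Il27 and Il17f stood above 41.3%, 39.7%, 35.6% and 26.5% of all genes after TCR.

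**Figure D2:**
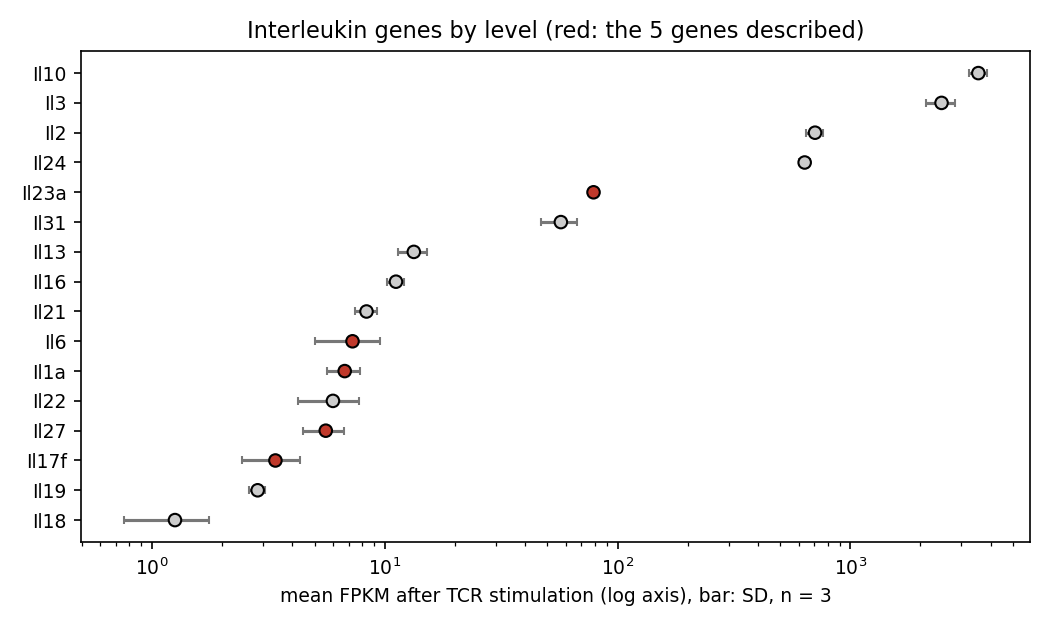
Mean FPKM after TCR stimulation (log axis) of the 16 interleukin genes analysed, with whiskers for the SD (n = 3) and the 5 genes described in red. Il23a lies near 78.9 FPKM, and the other 4 lie between 3.39 and 7.27 FPKM.

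With PI3Kdi all 5 genes were lower than after TCR alone. The mean level kept was 13.9% of the TCR mean for Il6, 20.7% for Il23a, 7.40% for Il27, 13.6% for Il1a and 7.56% for Il17f. The log2 differences were -2.76 ± 0.32 for Il6 and -2.27 ± 0.09 for Il23a (SE). They were -3.50 ± 0.55 for Il27, -2.87 ± 0.36 for Il1a and -3.57 ± 0.47 for Il17f. The size for Il17f was set in part by the culture at 0, since it was -2.81 without that culture, PI3Kdi replicate 2, and -1.80 and -4.84 with a pseudocount of 1 and 0.01. With a pseudocount of 1 Il6, Il27 and Il1a were also nearer to 0 (-2.03, -2.21 and -2.04). All 5 genes met the same thresholds, where 1.38% of the 11022 genes were called lower, and since these values were known when the genes were chosen nothing is read from the count. The median difference of the 5 genes was -2.87, against 0.02 over all genes.

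MEKi separated the 5 genes more widely. Il23a kept 63.8% of its TCR level and Il6 kept 43.5%, whereas Il27 kept 3.52%, Il1a 3.86% and Il17f 8.45%. The log2 difference was -0.65 ± 0.09 for Il23a, inside 2-fold, and -1.23 ± 0.32 for Il6. It was -4.88 ± 0.55 for Il27, -4.36 ± 0.36 for Il1a and -3.16 ± 0.47 for Il17f. With 2 of 3 cultures at 0, the Il27 value depends on the pseudocount, at -2.48 with 1 and -7.14 with 0.01, and it was -5.81 without MEKi replicate 2, the culture that held its reads. Il1a was -2.62 and -4.85 with the same pseudocounts, and Il17f was -1.75 with a pseudocount of 1. In this comparison 4 of the 5 genes met the thresholds, beside 2.51% of all genes called lower, from which again nothing is read, and the median of the 5 was -3.16 against 0.01. Il6 was less than 2-fold lower without TCR replicate 3 (-0.99) or MEKi replicate 2 (just inside 2-fold), and also with each sample rescaled to a common FPKM sum (-0.97). That rescaling puts the median difference of all genes at 0.26 in this comparison, at 0.19 with PI3Kdi and at -0.41 with TCR.

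**Figure D3:**
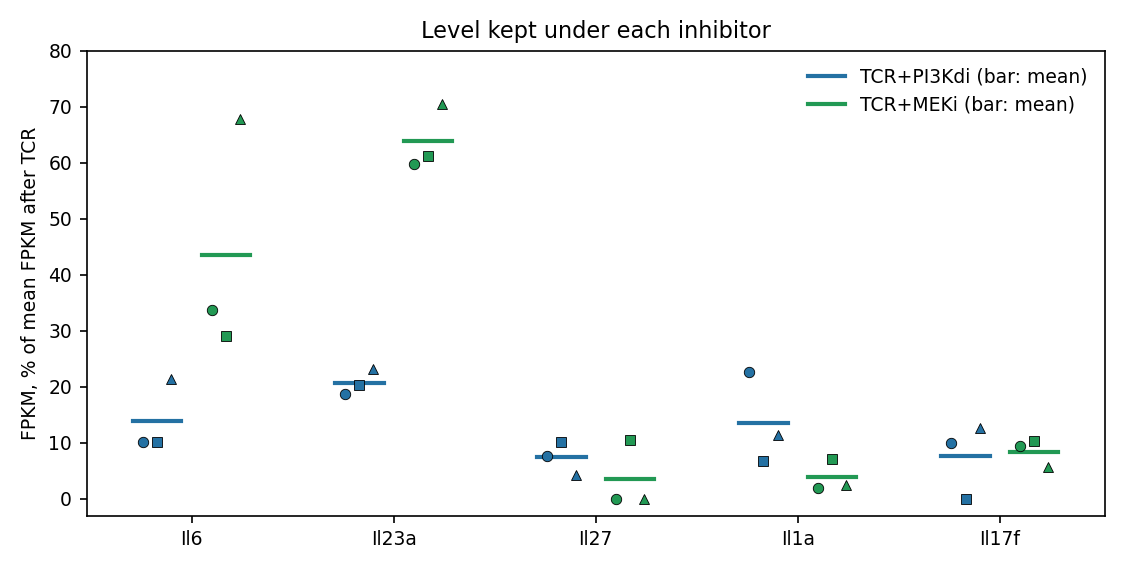
FPKM in each inhibitor-treated culture as a percentage of the mean FPKM after TCR alone, with circles, squares and triangles for replicates 1, 2 and 3 and bars for the mean. Il6 and Il23a keep 43.5% and 63.8% with MEKi, while Il27, Il1a and Il17f keep less than 10% on average.

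The comparison of the inhibitor groups with each other asks whether the level of a gene differs between the inhibitors. The paper reports that ERK1 and ERK2 were also less active in stimulated CTL without PI3K p110δ activity. Each inhibitor was used at a single dose, so a difference does not assign a gene to a kinase. The rule by which the genes were chosen names no value of this comparison. However, it is the difference between the falls with each inhibitor, which were known then, so its p-values are not free of that choice. With this limit, the genes were tested here with limma and p-values adjusted over all 11022 genes. Of the 5 genes, Il6 and Il23a were higher with MEKi than with PI3Kdi and Il1a was lower, where 1.39% of all genes were called higher and 1.71% lower.

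For Il23a the log2 difference was 1.62 (95% interval 1.43 to 1.81, limma adjusted p = 1.68e-08), on 1824 reads with MEKi and 709 with PI3Kdi. In same-numbered cultures the ratio of MEKi to PI3Kdi was 3.20, 3.02 and 3.04. For Il6 the difference was 1.53 (0.86 to 2.21, limma adjusted p = 0.00203), on 92 and 36 reads, and the ratios were 3.31, 2.86 and 3.16. For both genes, all 3 MEKi cultures were above all 3 PI3Kdi cultures.

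For Il1a the difference was -1.48 (-2.26 to -0.71, limma adjusted p = 0.00643), on 14 and 57 reads. Same-numbered ratios were 0.0855, 1.04 and 0.221, so 2 of 3 cultures had that direction. With a pseudocount of 1 in place of 0.1 the Il1a difference was -0.58, inside 2-fold. Il27 missed the threshold, with a difference of -1.38 (-2.55 to -0.21, limma adjusted p = 0.0732), and it rested on 4 and 9 reads, a rate ratio whose exact 95% counting interval was 0.119 to 1.90. It passed without MEKi replicate 2 (-2.31, limma adjusted p = 5.68e-05) and with a pseudocount of 0.01 (-3.35, limma adjusted p = 0.0363). Il17f did not pass either, at 0.41 (-0.59 to 1.41, limma adjusted p = 0.543), on 9 and 10 reads. An interval that reaches from below 0 to above a 2-fold rise does not show that the inhibitors acted alike on Il17f.

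**Figure D4:**
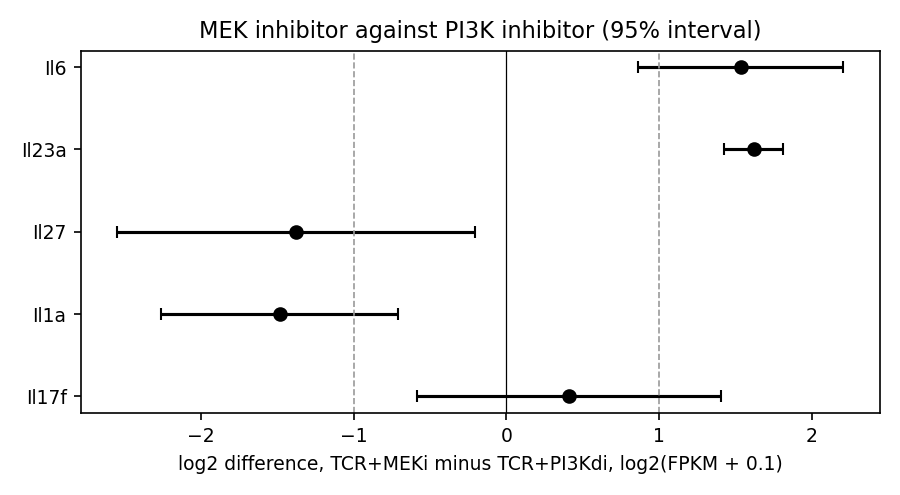
Log2 difference of TCR+MEKi minus TCR+PI3Kdi for each gene on log2(FPKM + 0.1), with whiskers for the 95% interval and dashed lines at 2-fold. The intervals of Il6 and Il23a lie above 0 and that of Il1a lies below, Il27 reaches from -2.55 to -0.21 with an adjusted p of 0.0732, and that of Il17f crosses 0.

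Over the 12 cultures, Il6 and Il23a had a Pearson correlation of 0.98 on log2(FPKM + 0.1) and Il27 and Il1a one of 0.95. The other pairs lay between 0.66 and 0.89. These points share the 4 groups and the cultures behind them, so the values describe the group pattern. Out of 9794 genes, the 3 most like Il6 were Zfp703 (0.99), Nfkbid (0.99), an IκB protein of the NF-κB system, and Cd70 (0.99), a ligand of the TNF family. Those most like Il23a were Zfp703 (1.00), Eif3c (1.00), a subunit of a translation initiation factor, and Stat5a (1.00), which carries the IL-2 signal. For Il27 they were Ddx18 (0.97), Vapa (0.97) and Eif2s1 (0.96). For Il1a they were the kinase gene Pim3 (0.98), the growth factor gene Hbegf (0.98) and Dnajc11 (0.97), and for Il17f they were Angptl2 (0.95), Shmt1 (0.95) and Cd5 (0.94). By Spearman correlation 1 of 3 names was shared for Il6 and for Il17f and 0 of 3 for the other genes.

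The chains that join with these cytokines and their relatives were largely not analysed here: 6 of 22 listed genes had a row, and Il12a, Il12b, Il17a, Il1b and Il1rn were not among them. TCR raised 2 of the 6 and lowered 1, where 8.87% of all genes were called higher and 11.1% lower. Ebi3, the partner chain of p28, was 7.17 ± 0.82 FPKM in Unstimulated, 5.19 ± 0.79 after TCR, 4.19 ± 0.70 with PI3Kdi and 7.55 ± 0.80 with MEKi (SD, n = 3), and it was not called in any comparison. Its MEKi cultures lay above its PI3Kdi cultures, with a log2 difference of 0.84 that stayed inside 2-fold. Il31, an itch-related cytokine whose receptor uses the oncostatin M receptor chain, rose from 0.95 ± 0.58 to 57.1 ± 10.2 FPKM and fell to 15.5 ± 2.89 with PI3Kdi and 8.87 ± 2.16 with MEKi, past the thresholds each time. Clcf1, a cytokine of the IL-6 family, rose with TCR by 1.77 on the log2 scale and was lower with MEKi (-1.77, limma adjusted p = 1.47e-07), while Osm was lower with TCR (-1.10, limma adjusted p = 6.25e-09). Between the inhibitors limma called 0 of the 6 genes, although 4 had an unadjusted p under 0.05 and 3 of them, Ebi3, Osm and Clcf1, an adjusted p under 0.05 with differences inside 2-fold.

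Of 14 receptor chain genes 8 were analysed, and Il6ra, Il23r, Il1r1 and Il17rc were not analysed here. Il1r2, the decoy receptor that binds IL-1 without signalling, rose from 1.76 ± 0.25 to 59.2 ± 6.84 FPKM with TCR and was 28.6 ± 2.46 with PI3Kdi and 19.6 ± 2.76 with MEKi, called in all 3 comparisons. Without TCR replicate 1 or PI3Kdi replicate 3 its fall with PI3Kdi was inside 2-fold (-0.96 and -0.98), as it was on the common FPKM sum (-0.86) and after quantile normalisation (-0.98). Il1rap, the shared signalling chain of IL-1 receptors, rose by 2.06 on the log2 scale with TCR. Il6st rose by 1.06, to 3.94 ± 0.68 FPKM, and was less than 2-fold higher without Unstimulated replicate 2 (0.94) or TCR replicate 3 (0.95), on the common FPKM sum (0.66) and with a pseudocount of 1 (0.79). Il12rb2, a chain of the IL-12 receptor, was higher with MEKi than after TCR alone by 1.502 on the log2 scale (limma adjusted p = 8.12e-08). Il27ra at 15.7 ± 0.84, Il12rb1 at 112 ± 10.7 and Il17ra at 17.6 ± 1.14 FPKM after TCR were not called in any comparison. In all, 3 of 8 receptor genes were called higher with TCR (8.87% of all genes), 1 lower with PI3Kdi (1.38%), and 1 higher and 1 lower with MEKi (0.980% and 2.51%). Between the inhibitors limma called 0 of them, and 5 had an adjusted and unadjusted p under 0.05 with differences inside 2-fold. The median differences of these 8 genes were -0.22, -0.12 and -0.08, beside -0.01, 0.02 and 0.01 over all genes.

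Of 17 genes of the pathways downstream of these receptors 16 were analysed. With TCR 3 rose (Jak2, Nfkbiz and Irak2) and 1 fell (Socs1), where 8.87% of all genes were called higher and 11.1% lower. With PI3Kdi limma called 0 of the 16, although 8 had an unadjusted p under 0.05 and 5 an adjusted p under 0.05 with differences inside 2-fold. With MEKi the kinase gene Jak2 was lower (-1.11, limma adjusted p = 5.7e-07), a change that was inside 2-fold on the common FPKM sum (-0.85) and after quantile normalisation, and Stat3, the transducer of IL-6 and IL-23 signals, was higher (1.03, limma adjusted p = 3.93e-09). Socs1, a feedback inhibitor of JAK kinases, was 24.3 ± 3.13 FPKM after TCR, 15.8 ± 3.17 with PI3Kdi and 48.0 ± 3.16 with MEKi, and it was the only gene of this list called between the inhibitors (1.62, limma adjusted p = 2.61e-07).

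All 35 listed regulators of transcription, mRNA decay and processing of these cytokines were analysed. TCR raised 17 and lowered 5 of them (8.87% and 11.1% of all genes), with a median difference of 0.93 against -0.01 over all genes. The largest rises were those of the NF-κB subunit gene Rel (4.61), Irf4 (4.24), Fos (4.07), Fosb (3.51), Nfkb2 (2.84) and Relb (2.76). With PI3Kdi 1 of the 35 was called lower (1.38% of all genes): Zc3h12a, which encodes the RNase Regnase-1 that degrades Il6 mRNA. Zc3h12a stood at 13.6 ± 1.01 FPKM against 28.1 ± 1.01 after TCR (-1.05, limma adjusted p = 1.02e-06). In that comparison 21 of the 35 had a limma adjusted p under 0.05, 9 of them higher, and all but Zc3h12a stayed inside 2-fold. With MEKi the 3 called lower (2.51% of all genes) were the AP-1 genes Fosb (-1.89), Fos (-1.47) and Fosl1 (-1.18). There 20 of the 35 had a limma adjusted p under 0.05, 7 of them higher, and all but these AP-1 genes stayed inside 2-fold. The share of all genes with an adjusted p under 0.05 alone is not given, so nothing is read from these counts by p. On the common FPKM sum the falls of Zc3h12a with PI3Kdi (-0.87) and Fosl1 with MEKi (-0.92) were inside 2-fold, and with a pseudocount of 1 the fall of Zc3h12a was just inside it.

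Between the inhibitors, Fosb was lower with MEKi (-1.86, limma adjusted p = 1.23e-05), as was Zfp36, whose protein tristetraprolin degrades cytokine mRNA (-1.27, limma adjusted p = 1.6e-08). Zfp36 stood at 31.1 ± 1.02 FPKM after TCR, 51.0 ± 5.12 with PI3Kdi and 21.0 ± 0.38 with MEKi (SD, n = 3). Its differences from TCR alone were 0.71 with PI3Kdi and -0.56 with MEKi, each inside 2-fold. Ahr, a factor linked to IL-17 and IL-22 expression, was higher with MEKi than with PI3Kdi (1.17, limma adjusted p = 0.000328). That difference was inside 2-fold with a pseudocount of 1 (0.90). With the replicate number as a block Cebpd was called as well (-1.01, limma adjusted p = 0.0403). Over all 4 lists, 65 of 88 genes were analysed, and the called genes were 25 higher and 7 lower with TCR, 0 and 3 with PI3Kdi, 2 and 7 with MEKi, and 2 and 2 between the inhibitors. Of the 65, 34 had a limma adjusted p under 0.05 with PI3Kdi, 11 of them higher, and 44 an unadjusted one, 14 of them higher. All of the higher ones were inside 2-fold, and these counts by p alone have no share of all genes beside them. Among all genes 8.87% were called higher and 11.1% lower with TCR, and 0.499% and 1.38% with PI3Kdi. The shares were 0.980% and 2.51% with MEKi and 1.39% and 1.71% between the inhibitors.

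**Figure D5:**
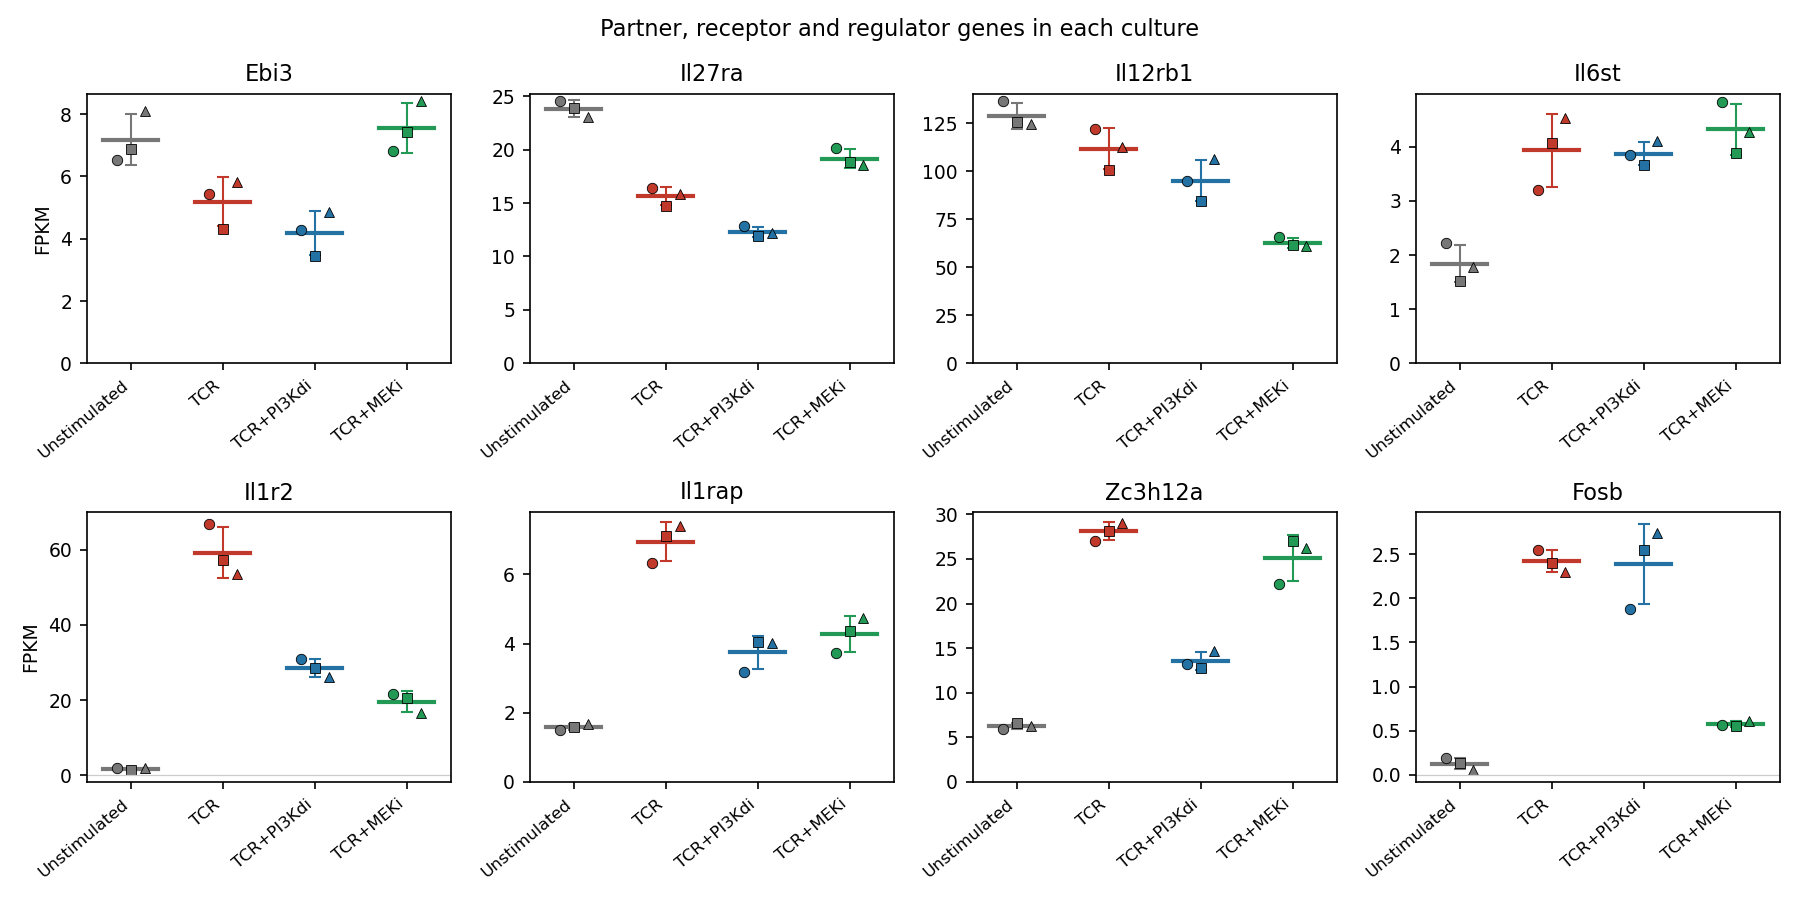
FPKM (linear axes) in the 12 cultures for partner, receptor and regulator genes of the 5 cytokines, with circles, squares and triangles for replicates 1, 2 and 3, bars for the mean and whiskers for the SD (n = 3). Il1r2 and Zc3h12a rise with TCR and are lower with PI3Kdi, Fosb is lower with MEKi, and Ebi3, Il27ra and Il12rb1 were not called in any comparison.

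A further list of interleukin genes, which leaves out Il31 and Il18 of the partner list, had 9 genes analysed. With TCR 8 were called higher (8.87% of all genes) and Il16 lower (11.1%). With PI3Kdi 8 were called lower (1.38% of all genes), and with MEKi 6 were called lower (2.51%). The fall of Il10 with PI3Kdi was inside 2-fold on the common FPKM sum (-0.935) and after quantile normalisation (-0.815). With MEKi, Il10 after quantile normalisation (-0.922) and Il24 on the common FPKM sum (-0.975) were inside 2-fold. Il3 with a pseudocount of 0.01 (limma adjusted p = 0.0733) and Il19 without MEKi replicate 1 (limma adjusted p = 0.0602) were not called with MEKi. Il16 was called with neither inhibitor, and Il21 (-0.67) and Il22 (0.98) were not called with MEKi. Il18, a cytokine of the IL-1 family at 1.26 ± 0.50 FPKM after TCR, was not called in any comparison. The median difference of these 9 genes was -2.17 with PI3Kdi and -1.30 with MEKi. It was -2.87 and -3.16 for the 5 genes described and 0.02 and 0.01 over all genes. Il3, a growth factor for blood cells, went from 0.09 FPKM to 2464 ± 343 FPKM, and was 547 FPKM with PI3Kdi and 762 FPKM with MEKi. Whether the 5 genes differed from these 9 was not tested.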

How the data were processed

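RNA of 12 CTL cultures was sequenced as paired reads from stranded mRNA libraries in 1 lane. The authors aligned reads to mm10 with STAR 2.4.2a, counted them per RefSeq gene with Subread 1.5.0, removed low-count genes with filterByExpr, scaled counts by TMM in edgeR and deposited FPKM to 2 decimals, using the non-overlapping exon length. Strand use in counting is not given in the sources used here, and 0 value columns could not be assigned to a sample.

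FPKM are not counts, so log2(FPKM + 0.1) of all 11022 genes and 12 samples entered 1 linear model per gene with a mean for each group (R 4.3.3, limma 3.58.1, moderated with an intensity trend). Fold changes are on that scale, which understates low genes. A call needed a p under 0.05 after Benjamini-Hochberg adjustment over all genes and more than a 2-fold change. The shares of all genes refer to such calls. Counts by p alone have no share beside them, so nothing is read from those counts. The procedure was tested on simulated data. The genes described and the gene lists were chosen with earlier results of these data known. Some listed genes are not reported here and were left out of the lists and their counts. Named genes were the 5 genes, the genes of the lists that were called (at most 6 per list and comparison, by size), their partner and receptor chains, other interleukins by level, and the 3 genes most correlated with each among those with a mean of at least 1 FPKM after TCR.

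Approximate reads came from FPKM, the estimated depth, and for each gene the length at which its values fell nearest to whole reads, so their wholeness is not independent evidence. Positions and exons are from GENCODE M21 (GRCm38, the build called mm10), promoters from RefSeq. Python 3.11.15, NumPy 2.4.6, pandas 2.3.3 and SciPy 1.17.1 were used.

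The cells came from 3 mice, but no source ties a replicate number to a mouse. Deviations from the group means, over 9899 genes, correlated in same-numbered cultures at 0.239 to 0.451 between TCR and PI3Kdi, 0.122 to 0.182 between TCR and MEKi and 0.137 to 0.149 between the inhibitors, so in these comparisons the numbers paired the cultures. The model with replicate number as a block is given where it changed a call. Alternatives were a pseudocount of 1 or 0.01, dropping genes with a mean under 1 FPKM, a common FPKM sum, quantile normalisation, the block, fitting only the groups compared, and leaving out each sample.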

Additional observations from a re-analysis of the deposited data

How the results depend on the processing

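With a pseudocount of 1 the genes called numbered 1405 in place of 2202 for TCR, 90 in place of 207 for PI3Kdi, 201 in place of 385 for MEKi and 150 in place of 341 between the inhibitors. On the common FPKM sum 1 in place of 3 pathway genes were called with PI3Kdi. Pathway genes called higher and lower there numbered 19 and 11 for TCR against 25 and 7, and 5 and 5 for MEKi against 2 and 7. Over all genes the split into higher and lower there was 647 and 2276 for TCR against 978 and 1224. It was 119 and 107 for PI3Kdi against 55 and 152, and 323 and 202 for MEKi against 108 and 277. Between the inhibitors Il1a was -0.58 with a pseudocount of 1 and Il27 was -3.35 with one of 0.01. Leaving out 1 sample gave 1.17 to 1.86 for Il6, 1.55 to 1.71 for Il23a, -2.31 to -0.91 for Il27, -1.89 to -1.08 for Il1a and -0.35 to 0.86 for Il17f, which reversed without PI3Kdi replicate 2, the culture at 0. Genes called then ranged from 2172 to 2268 for TCR, 195 to 241 for PI3Kdi, 377 to 440 for MEKi and 330 to 368 between the inhibitors, and pathway genes from 31 to 33, 3 to 4, 9 to 11 and 4 to 5.

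For TCR against Unstimulated, same-numbered cultures correlated at 0.105, 0.153 and 0.0037, so the numbers were not shown to pair them. With the replicate block 2206 in place of 2202 genes were called there. Apart from leaving out samples, 88 pairings of a main result with an alternative were labelled the same. For a test of a gene this meant the same direction and side of the threshold. For a total of called genes it meant within 1.5 times, whatever the split into higher and lower. For a read total it meant within its counting interval. In the paired comparisons the block changed no call of the 5 genes (Il27 adjusted p = 0.0531 by limma) and added Cebpd. The TCR reads of Il27 numbered 168 by its annotated exon length against 116, an alternative chosen after seeing the data. Depth limits Il27, Il1a and Il17f under the inhibitors to totals of 4 to 57 reads.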

Other observations

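Il22, a cytokine that acts on epithelial cells and is often made by cells that also make IL-17, had the largest difference between the inhibitors among the interleukin genes analysed. It was listed at 0 in all Unstimulated cultures and was 5.99 ± 1.75 FPKM after TCR, 0.72 ± 0.15 with PI3Kdi and 11.7 ± 1.91 with MEKi (SD, n = 3). All 3 MEKi cultures lay above all TCR cultures, between 10.3 and 13.9 FPKM against 4.97 and 8.01, and the log2 difference from TCR of 0.98 was inside 2-fold. Between the inhibitors the difference was 3.85 (95% interval 3.42 to 4.28, limma adjusted p = 1.3e-08). Il21, a cytokine that helps B cells and sustains CD8 T cells, was also higher with MEKi than with PI3Kdi, at 5.21 ± 0.55 against 2.38 ± 0.45 FPKM (1.11, limma adjusted p = 7.56e-05). Without PI3Kdi replicate 2 that difference was 0.99, inside 2-fold, and with a pseudocount of 1 it was 0.88. Both were named because they are the genes of the other interleukin list that passed in this comparison.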
